A study of Brassica oleracea with 8 samples.

Results

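Heading cabbage was set against kale and TO1000 together, to find the genes whose RNA level in cabbage lay beyond both other morphotypes of Brassica oleracea in the same direction. Its 2 libraries, of 8 in all, were compared with the average of the kale group mean and the TO1000 group mean, and then with each group separately. Cabbage lay outside both others on 2820 of the 28126 genes tested (10%), higher on 1143 (4.06%) and lower on 1677 (5.96%). Among the genes that the study names, these were lower for 3 copies of the myrosinase TGG1, for the flowering genes SOC1 and ELF3, for the leaf homeobox gene HAT5, for the auxin response gene AXR1 and for the ascorbate gene VTC5. They were higher for the methyltransferases IGMT1 and IGMT4, for the auxin transport kinase PID, for the chromatin gene LHP1 and for a ferritin, LSC30. These calls were not equally firm. Under 19 alternative analyses, HAT5, SOC1 and 1 TGG1 copy kept the call in all, but ELF3 in only 8 and VTC5 in only 10.

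Cabbage, kale and TO1000 were each represented by a single accession. The labels call the cabbage var. sabadua, the kale var. viridis and TO1000 var. alboglabra, whereas the study's methods use other variety names for the first pair, and the files do not settle which is right. TO1000 is a doubled haploid rapid cycling line whose genome was also the mapping reference, so reads of cabbage and kale were aligned to a genome that is not their own. No treatment was given: all plants grew in 1 chamber under short days and were sampled 24 days after sowing. The tissue was the top of the stem with young leaves and meristems, at an age when cabbage had only a few expanded leaves, and each library pooled 8 plants. Groups had 2 cabbage, 3 kale and 3 TO1000 libraries. Another cabbage replicate was sequenced, but the study left it out because it gave few reads, of low quality. Because each morphotype was 1 accession, a difference belongs to these accessions, and a difference of the morphotype cannot be told apart from it.

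In a heading cabbage the terminal bud enlarges and successive leaves curve over the shoot tip, while the stem stays short. Kale leaves spread out along the stem, and TO1000 flowers early. All carry glucosinolates, sulphur compounds that the enzyme myrosinase splits when tissue is damaged, which gives these vegetables their sharp taste and deters insects. Auxin, a hormone carried directionally through the shoot tip, positions new leaves and restrains side buds.

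Counts on genes totalled 3016197 and 5726708 in the cabbage libraries, against 4742169 to 7539991 in the kale and 5310933 to 6863962 in the TO1000 libraries. Libraries of 1 group differed by more than sampling noise in every pair (chi-square per gene 5.74 to 17.6), and each was taken as its own replicate. Thinned to 3016197 counts, the cabbage libraries held counts on 32840 and 31271 genes. The kale libraries held counts on 32888, 33304 and 39112 genes at that depth, and the TO1000 libraries on 35555, 38971 and 39774, so that kale replicate 3 and TO1000 replicates 2 and 3 stood above the rest. Markers of other tissues were sparse among the genes with a name. AP1, a marker of floral meristems, was at 0 and 0.168 CPM (counts relative to the library total after TMM scaling, which adjusts for differences in library makeup) in cabbage, 6.74, 5.38 and 5.26 CPM in kale and 0, 0.137 and 0.148 CPM in TO1000. AGL12, known from Arabidopsis roots, was at 6.88 and 4.69 CPM in cabbage, 0.275, 0.538 and 0 CPM in kale and 2.99, 3.28 and 1.62 CPM in TO1000. The summed level of the primordium genes ANT, GRF3 and GRF4 was 39.1 and 36.4 CPM in cabbage, 15.8 to 21.0 CPM in kale and 41.3 to 54.3 CPM in TO1000. That of 5 trichome genes (GL1, GL2, EGL3, TRY and HDG11) was 47.8 and 64.5 CPM in cabbage, 59.0 to 89.1 CPM in kale and 55.8 to 65.2 CPM in TO1000. This sum joins opposite differences: GL1, GL2 and TRY had their highest group mean in kale, EGL3 and HDG11 their lowest. The part of tissue makeup in the results was not tested, and in pooled tissue fewer cells of a type cannot be told apart from less RNA per cell.

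Against the average of kale and TO1000, 6287 genes were differentially expressed in cabbage, 22.4% of those tested. Of these 2921 were higher (10.4%) and 3366 were lower (12%). A gene was called at a false discovery rate (FDR) under 0.05 in edgeR's quasi-likelihood test, with Benjamini-Hochberg adjustment, together with a log2 fold change above 1 or below -1. An average of 2 groups can be passed where only 1 of them differs, so each gene was also compared with each group. The comparison with kale alone called 25.7% of genes and that with TO1000 alone called 26.2%, both using the same 2 cabbage libraries. On 2820 genes both comparisons were called in the same direction, and all of these were also called against the average. The other 3467 genes called against the average were split nearly evenly: 1713 differed only from TO1000 and 1686 only from kale. A further 53 had cabbage between the others, called in both comparisons in opposite directions, and 15 were called in neither. Over all tested genes, cabbage lay between the others on 293.

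**Figure D1:**
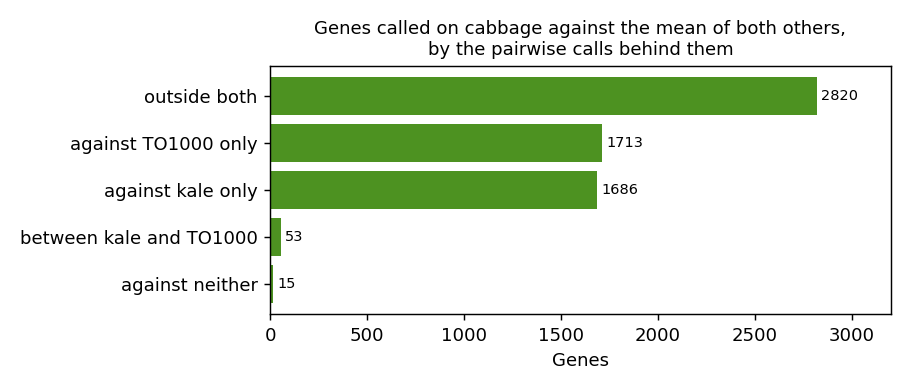
Genes called in cabbage against the average of kale and TO1000 (horizontal axis, number of genes), divided by which single comparison was also called. The 2820 genes outside both others were the largest class, followed by 1713 called only against TO1000 and 1686 only against kale.

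Of the 2820 genes outside both others, 1143 were higher in cabbage and 1677 lower, so that lower genes made up 59.5%. The higher genes had a median log2 fold change of 2.17 against the average, 1.95 against kale and 2.11 against TO1000. The lower genes had a median of -2.41 against the average, -2.32 against kale and -2.41 against TO1000. In 315 of the lower genes both cabbage libraries were at 0 counts, where a fitted fold change depends on the prior count. With every count of 0 over a group set to its limit of 3 counts, the medians were 2.17 for the higher and -2.13 for the lower genes. On that footing 635 higher genes (55.6%) and 913 lower genes (54.4%) lay beyond 4-fold, and 161 (14.1%) and 228 (13.6%) beyond 16-fold. The median over all tested genes was -0.02. Without cabbage replicate 2, which left a single cabbage library assumed to vary like the others, 1729 genes lay outside both, and 1379 of them were among the 2820. Without kale replicate 3 and TO1000 replicates 2 and 3, 2178 genes did, 981 higher and 1197 lower, and 1882 were among the 2820.

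**Figure D2:**
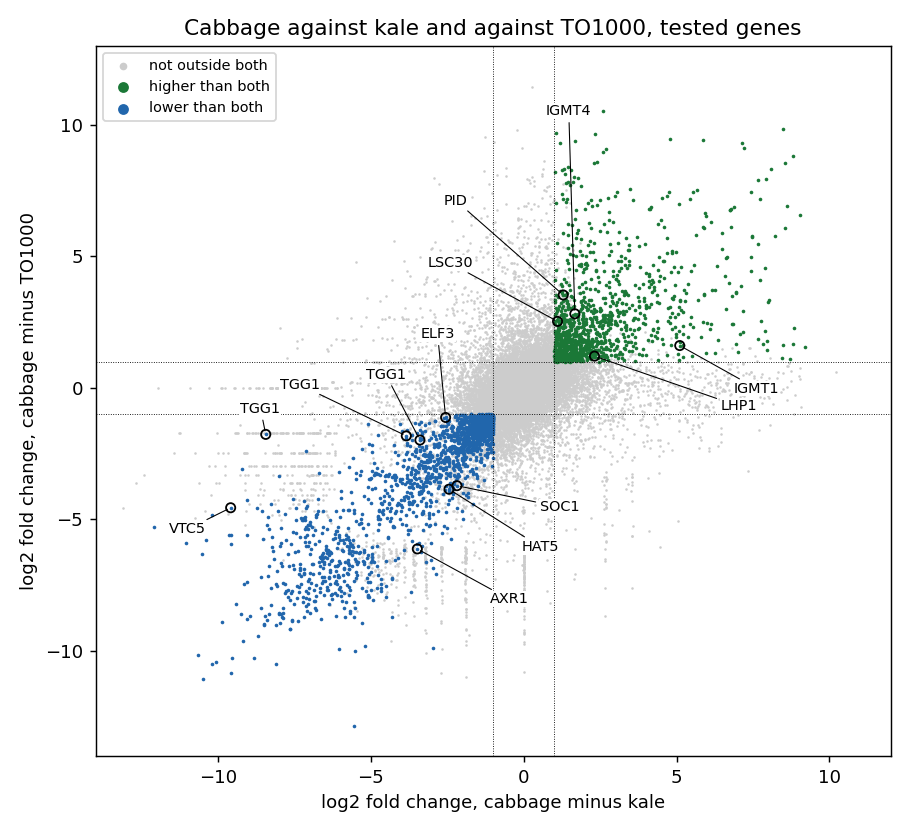
Log2 fold change of cabbage against TO1000 (vertical) and against kale (horizontal) for the 28126 tested genes, with genes higher than both in green, genes lower than both in blue and the 13 named genes circled. Dotted lines mark 2-fold, the green points lie beyond it in the upper right and the blue points in the lower left, and the grey streaks are genes with few or no counts in a group.

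The members were low to moderate in level. Genes higher than both others had a median of the group mean of 11.6 CPM in cabbage, 2.56 CPM in kale and 2.44 CPM in TO1000. Genes lower than both had 1.41 CPM in cabbage, 7.43 CPM in kale and 7.82 CPM in TO1000, and all tested genes had 8.59, 9.33 and 9.21 CPM in the same order of groups. When the tested genes were divided into 4 bins of equal size by mean log2 CPM, 15% of the lowest bin lay outside both others, 13.5% of the second, 7.5% of the third and 4.15% of the highest. In each bin more genes were lower than higher, with 567 against 487 in the lowest and 168 against 124 in the highest. Lower genes made up their largest part in the third bin, at 68.3%.

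**Figure D3:**
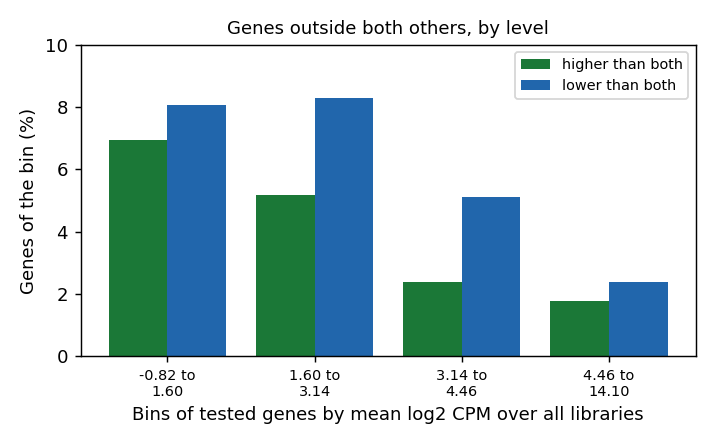
Share of tested genes (%, vertical) on which cabbage was higher or lower than both others, in 4 bins of mean log2 CPM over all libraries (horizontal). Bars are shares of all genes in the bin, and their sum fell to 4.15% in the highest bin, against 15% in the lowest.

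As a part of the library, the 1143 higher genes held 4.10% and 4.58% of the scaled counts in cabbage, against 1.19% to 1.38% in kale and 1.1% to 1.4% in TO1000. The 1677 lower genes held 1.02% and 0.840% in cabbage, against 3.55% to 4.12% in kale and 3.59% to 3.74% in TO1000. These shares are a description, since the same counts chose the genes. Both cabbage libraries lay beyond all 6 others in the called direction on 2777 of the 2820 genes. The calls used these same libraries, so this separation was largely built in. Over all tested genes, both cabbage libraries lay above the 6 others on 16.7% and below them on 17%. The 2 cabbage libraries differed from each other by a median of 0.33 on the log2 CPM scale among the higher genes and 0.44 among the lower genes, and by 0.32 over all tested genes.

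Kale and TO1000 were mostly not called apart on these genes, as on tested genes in general. Among the 1143 higher genes, 828 showed no called difference between kale and TO1000, kale was above TO1000 on 192 and below it on 123. Among the 1677 lower genes, 1276 showed no called difference, kale was above TO1000 on 179 and below it on 222. Together 74.6% of the genes outside both had no called difference between kale and TO1000, beside 72.3% of all tested genes.

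The genes were spread over every class of identifier. Of the 9 numbered chromosome series of identifiers, Bo2g had the largest share outside both others, 11.6% of its tested genes, and Bo6g the smallest, 7.36%. Identifiers on unplaced scaffolds reached 13.4% of 977 tested genes. Short noncoding RNA features reached 16.9% of 89, with 2 higher and 13 lower, although the libraries were made from polyadenylated RNA. Neighbouring identifiers shared a direction somewhat more often than the background. The next tested identifier was also higher for 7.2% of the higher genes, beside 4.01% of all genes, and also lower for 8.63% of the lower genes, beside 5.87% of all. The longest run held 6 consecutive tested identifiers lower in cabbage, Bo8g105760 to Bo8g105850, a run singled out after its values were seen. Its member with the highest CPM, Bo8g105810, had 11.9 and 10.9 CPM in cabbage, 30.9, 39.1 and 33.0 CPM in kale and 48.3, 60.5 and 60.8 CPM in TO1000. Another 3 of the 6 were at 0 counts in both cabbage libraries. Neighbouring genes can be near copies whose reads map to more than 1 place, and this was not resolved here.

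The study names 79 genes with an identifier, under headings for apical dominance, leaf development, trichomes, flowering time, defense and taste, and nutrients. They were chosen on these same libraries, for kale or for differences among all morphotypes, and so are no independent evidence on cabbage. Of the 79, 74 passed the count filter, and cabbage lay outside both others on 13 (17.6%, beside 10% of all genes), 5 higher and 8 lower. The study lists all of the 13 but ELF3, IGMT1 and VTC5 as differing in all 3 pairwise comparisons. That choice used the same comparisons with cabbage, so the share of 17.6% is partly built in. Of all genes, 25.7% were called against kale and 26.2% against TO1000, whether or not the other comparison was called. Another 54 of the 74 were called only against kale, 1 only against TO1000 and 5 with cabbage between, while 1 was called in neither comparison. Against the average, 15 were higher, 22 were lower and 37 were not called, with a median log2 fold change of -0.81 (-0.75 with zeros at their limit). On all 13 genes, as the calls on these libraries made likely, both cabbage libraries lay beyond the 6 others. Of all 74, both lay above the 6 others on 12 and below them on 16, beside 16.7% and 17% of all genes. On 4 of the 13, HAT5, SOC1, TGG1 (Bo8g063740) and IGMT4, the call outside both held in every fit that left out 1 library. Under glmTreat of edgeR, which requires a change significantly beyond 2-fold, 3 of the 13 stayed outside both, HAT5, SOC1 and TGG1 (Bo8g063740).

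**Figure D4:**
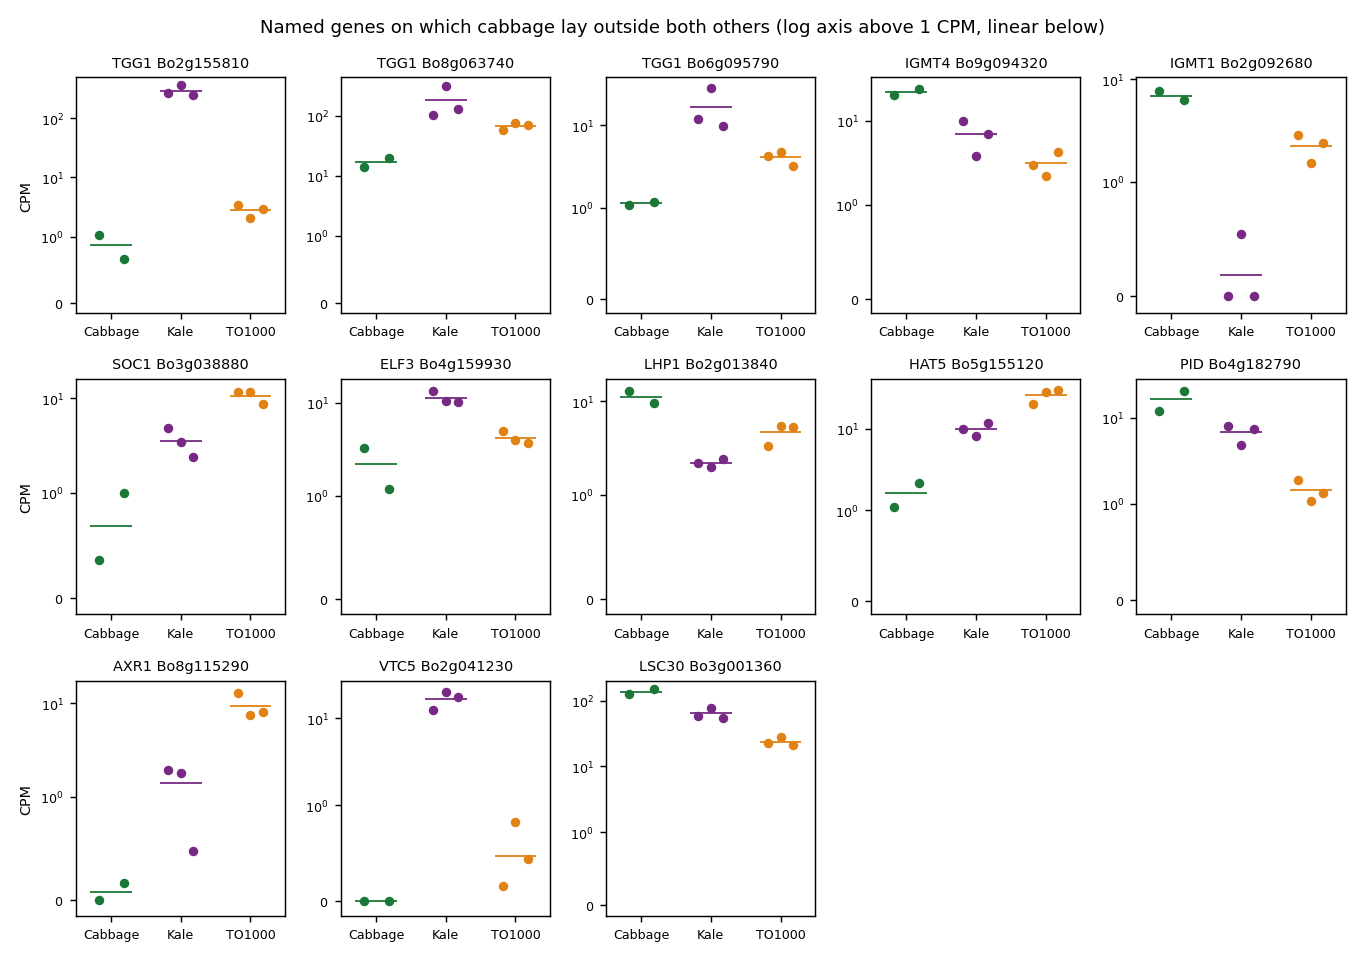
CPM of the 13 named genes on which cabbage lay outside both others (vertical, logarithmic above 1 CPM and linear below), with 1 point per library and a line at the group mean. In every panel both cabbage points lie above, or both below, all 6 kale and TO1000 points, as for IGMT4, with 20.3 and 24.0 CPM in cabbage and at most 9.90 CPM elsewhere. The calls that chose the genes used these same libraries.

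Of the 9 genes listed for apical dominance, 8 were tested, and 1 was higher and 1 lower than both others (4.06% and 5.96% of all genes). Their median log2 fold change against the average was -3.03 (-1.39 with zeros at their limit), beside -0.02 over all tested genes. Of the 11 leaf genes, 1 was higher and 1 lower, a pair of counts read against the same shares, with a median of -0.60. The study chose both lists on these libraries, so these medians are a description. PID stands on both lists. In Arabidopsis it encodes a protein kinase that sets on which side of the cell the PIN auxin carriers lie. PID (Bo4g182790) had 11.9 and 20.6 CPM in cabbage, 8.11, 4.84 and 7.41 CPM in kale and 1.89, 1.09 and 1.33 CPM in TO1000. Cabbage was highest, kale intermediate and TO1000 lowest, with no overlap. PID rose by 2.41 ± 0.28 (SE) on the log2 scale against the average, by 1.29 ± 0.31 against kale and by 3.53 ± 0.36 against TO1000 (edgeR, Benjamini-Hochberg adjusted p = 8.49e-06, 0.00341 and 1.31e-06). The step above kale rested on cabbage replicate 2: without it the log2 fold change was 0.81, with an adjusted p of 0.171 in edgeR.

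AXR1 encodes a subunit of the enzyme that activates the ubiquitin-like protein RUB, needed in Arabidopsis for the response to auxin. The copy Bo8g115290 had 0 and 1 counts in the cabbage libraries, against 14, 10 and 2 in kale and 81, 54 and 55 in TO1000. Its level in kale was 13.3 times that in cabbage (95% interval 2.19 to 546, exact binomial) and in TO1000 81.1 times (14.4 to 3220). Cabbage lay below all others, but by a single count from kale replicate 3. The adjusted p of edgeR with Benjamini-Hochberg adjustment was 0.0124 against kale and 1.56e-05 against TO1000. Against kale it was 0.0529 without cabbage replicate 1 and 0.0719 without cabbage replicate 2. Of the other AXR1 copies, Bo8g052710 was at 0 in both cabbage libraries, 5.22, 3.77 and 1.67 CPM in kale and 0, 0.410 and 0.295 CPM in TO1000, and Bo8g102450 was at 0 and 0.168 CPM in cabbage, 9.21, 5.38 and 5.26 CPM in kale and 0 in all TO1000 libraries. The 3 copies thus had little or no signal in cabbage, kale was highest on 2 of them and TO1000 on 1.

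HAT5 encodes a homeodomain-leucine zipper transcription factor with a role in leaf development. HAT5 (Bo5g155120) had 1.09 and 2.18 CPM in cabbage, 10.0, 8.07 and 11.7 CPM in kale and 20.0, 28.5 and 30.1 CPM in TO1000. The groups were fully separated, with cabbage lowest and TO1000 highest. HAT5 fell by 3.15 ± 0.34 (SE) on the log2 scale against the average, with log2 fold changes of -2.44 ± 0.37 against kale and -3.85 ± 0.35 against TO1000. The adjusted p was 4.66e-06, 9.43e-05 and 4.32e-07 for these comparisons (edgeR, Benjamini-Hochberg), and the gene kept its place outside both in all 19 alternatives, with -3.86 against the average without cabbage replicate 2.

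Of the 17 flowering genes 16 were tested, 1 was higher and 2 were lower than both others, beside 10% of all genes outside both. On another 4 cabbage lay between kale and TO1000, beside 1.04% of all genes. Members were picked because they already differed here, in kale or among all morphotypes. The counts outside both and between are thus partly built in, and are a description. The median of the 16 genes against the average was -0.27 (-0.63 with zeros at their limit). SOC1 encodes a MADS-box protein that in Arabidopsis gathers signals of age, day length and cold and promotes flowering. SOC1 (Bo3g038880) had 0.362 and 1.01 CPM in cabbage, 4.81, 3.41 and 2.39 CPM in kale and 11.6, 11.5 and 8.71 CPM in TO1000. Cabbage was lowest and TO1000 highest, without overlap. SOC1 fell by 2.95 ± 0.47 (SE) on the log2 scale against the average, with log2 fold changes of -2.18 ± 0.52 against kale and -3.72 ± 0.47 against TO1000 (edgeR, Benjamini-Hochberg adjusted p = 0.000192, 0.00366 and 1.56e-05), and it stayed outside both in all 19 alternatives. Its size was less firm, at -4.03 against the average without cabbage replicate 2 and -4.12 with all libraries thinned to the smallest. The other copy on the list, Bo4g024850, had 1.81 and 1.68 CPM in cabbage, 0.137, 0.359 and 0.478 CPM in kale and 4.09, 5.05 and 3.84 CPM in TO1000, so on this copy cabbage lay between the others.

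LHP1 encodes a chromatin protein of the Polycomb system that in Arabidopsis helps to keep the flowering signal FT silent. LHP1 (Bo2g013840) had 12.7 and 9.55 CPM in cabbage, 2.20, 1.97 and 2.39 CPM in kale and 3.31, 5.46 and 5.31 CPM in TO1000. Both cabbage libraries were above all others. LHP1 rose by 1.76 ± 0.28 (SE) on the log2 scale against the average, by 2.32 ± 0.34 against kale and by 1.21 ± 0.31 against TO1000 (edgeR, Benjamini-Hochberg adjusted p = 0.000198, 7.16e-05 and 0.00594). Against TO1000 the adjusted p was 0.0537 in edgeR without cabbage replicate 1.

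ELF3 is part of the evening complex of the circadian clock and delays flowering in Arabidopsis. ELF3 (Bo4g159930) had 3.26 and 1.17 CPM in cabbage, 13.3, 10.4 and 10.3 CPM in kale and 5.04, 3.96 and 3.69 CPM in TO1000. Cabbage was lowest, but one of its libraries lay close to TO1000. ELF3 fell by 1.84 ± 0.39 (SE) on the log2 scale against the average, and its log2 fold changes were -2.55 ± 0.40 against kale and -1.12 ± 0.43 against TO1000 (edgeR, Benjamini-Hochberg adjusted p = 0.00191, 0.00013 and 0.0479). The difference from TO1000 was weak: it held in 8 of 19 alternatives, and without cabbage replicate 2 the log2 fold change was -0.37 with an adjusted p of 0.613 (edgeR). Against the average it was -2.53 without cabbage replicate 1 and -1.09 without cabbage replicate 2.

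The 17 genes listed for defense and taste were all tested, 2 were higher and 3 lower than both others (4.06% and 5.96% of all genes), and their median against the average was -1.40. This list holds 9 copies of TGG1, a myrosinase, the enzyme that splits glucosinolates. Cabbage lay below both others on 3 copies, below kale only on 5 and between the others on 1. Against the average 8 of the 9 were lower, beside 12% of all genes, and on 7 of the 9 both cabbage libraries were below all 6 others, beside 17% of all genes. The study picked these copies on these libraries, for kale or for differing in all 3 pairwise comparisons, so the counts are a description. The 3 copies below both others were of the latter kind.

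TGG1 Bo8g063740 had 14.1 and 19.8 CPM in cabbage, 101.5, 317 and 128 CPM in kale and 57.1, 76.9 and 71.0 CPM in TO1000. Cabbage was lowest and kale highest, with kale replicate 2 far above the other kale libraries. This copy fell by 2.69 ± 0.39 (SE) on the log2 scale against the average, with log2 fold changes of -3.39 ± 0.42 against kale and -1.98 ± 0.40 against TO1000 (edgeR, Benjamini-Hochberg adjusted p = 8.08e-05, 1.16e-05 and 0.00108). It stayed outside both in all 19 alternatives. TGG1 Bo2g155810 had 1.09 and 0.670 CPM in cabbage, 263, 354 and 247 CPM in kale and 3.46, 2.05 and 2.95 CPM in TO1000. Nearly all of its signal was in kale. Its log2 fold change was -8.44 ± 0.37 (SE) against kale and -1.77 ± 0.49 against TO1000, at an adjusted p of 1.99e-10 and 0.00978 (edgeR, Benjamini-Hochberg), and without cabbage replicate 2 the second was 0.185. TGG1 Bo6g095790 had 1.09 and 1.17 CPM in cabbage, 11.8, 28.2 and 9.80 CPM in kale and 4.25, 4.78 and 3.25 CPM in TO1000, with cabbage below all others. Its log2 fold change was -3.84 ± 0.54 (SE) against kale and -1.82 ± 0.61 against TO1000 (edgeR Benjamini-Hochberg adjusted p 4.60e-05 and 0.0252). Against TO1000 the adjusted p in edgeR was 0.0854 without cabbage replicate 1 and 0.171 without cabbage replicate 2.

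The copy with the highest CPM in cabbage (not corrected for gene length), TGG1 Bo2g155840, had 73.1 and 89.2 CPM in cabbage, 283, 542 and 282 CPM in kale and 104, 114 and 109 CPM in TO1000. It was below both others in every library but was called only against kale. Copy Bo8g039530 was the exception, with 5.43 and 6.87 CPM in cabbage, 17.9, 34.3 and 24.2 CPM in kale and 1.10, 2.73 and 3.84 CPM in TO1000. Here cabbage lay between the others. Reads that match several near-identical copies may be placed on one of them or dropped, so the split of counts between TGG1 copies is uncertain.

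**Figure D5:**
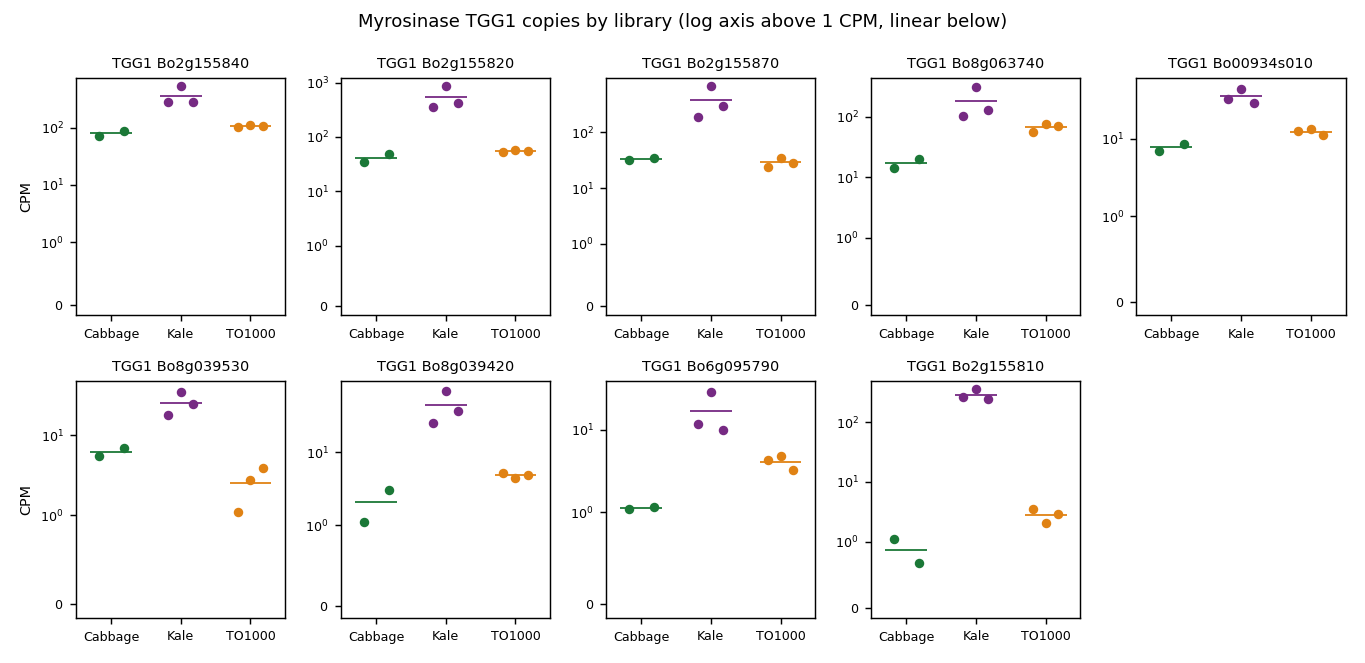
CPM of the 9 TGG1 copies (vertical, logarithmic above 1 CPM and linear below), with 1 point per library, a line at the group mean and copies ordered by their mean in cabbage. Kale is highest on every copy, and cabbage is below TO1000 without overlap on 7 of the 9, with Bo8g039530 (5.43 and 6.87 CPM in cabbage) and Bo2g155870 as the exceptions.

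IGMT1 and IGMT4 encode methyltransferases that in Arabidopsis modify the ring of indole glucosinolates. IGMT4 (Bo9g094320) had 20.3 and 24.0 CPM in cabbage, 9.90, 3.77 and 6.93 CPM in kale and 2.99, 2.19 and 4.28 CPM in TO1000. Both cabbage libraries were above all others. IGMT4 rose by 2.25 ± 0.28 (SE) on the log2 scale against the average, by 1.67 ± 0.32 against kale and by 2.82 ± 0.34 against TO1000 (edgeR, Benjamini-Hochberg adjusted p = 2.01e-05, 0.000751 and 1.02e-05). Under glmTreat of edgeR its adjusted p against kale was 0.0531, which ended that call. IGMT1 (Bo2g092680) had 7.60 and 6.20 CPM in cabbage, 0, 0.538 and 0 CPM in kale and 2.83, 1.5 and 2.36 CPM in TO1000. Its level in cabbage was 37.7 times that in kale (95% interval 12.3 to 188, exact binomial), where 3 counts were made in all, each of them in kale replicate 2. It exceeded TO1000 by 1.61 ± 0.50 (SE) on the log2 scale (edgeR Benjamini-Hochberg adjusted p 0.0177), and without either cabbage library that p was 0.0898 or 0.0782. A second IGMT1 copy, Bo2g092580, ran the other way, with 0.362 and 0.335 CPM in cabbage, 3.71, 1.97 and 4.06 CPM in kale and 0.787, 0.956 and 0.295 CPM in TO1000. It was called only against kale.

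All 14 genes listed for nutrients were tested. Against the average 10 were higher and 1 was lower (10.4% and 12% of all genes), with a median log2 fold change of 1.55. Of the 14, 11 were called against kale alone, beside 25.7% of all genes called against kale, with or without a call against TO1000. The study listed these genes for a difference in kale or among all morphotypes, so these counts partly restate that choice. Only 1 of the 10 genes higher than the average was higher than both others. That gene, Bo3g001360, is named LSC30 by the study and given as a ferritin, the protein shell that stores iron in plastids. It had 126 and 149 CPM in cabbage, 59.5, 77.5 and 55.0 CPM in kale and 22.4, 28.3 and 21.0 CPM in TO1000. Both cabbage libraries were above all others, and the 3 groups did not overlap. LSC30 rose by 1.82 ± 0.17 (SE) on the log2 scale against the average, by 1.11 ± 0.20 against kale and by 2.53 ± 0.20 against TO1000 (edgeR, Benjamini-Hochberg adjusted p = 7.21e-07, 0.000352 and 9.97e-08). Without cabbage replicate 2 the log2 fold change against kale was 0.97, short of the 2-fold threshold. A further ferritin, FER3 (Bo2g156090), had 5.79 and 6.87 CPM in cabbage, 9.21, 4.48 and 5.26 CPM in kale and 0.315, 0 and 0 CPM in TO1000, so cabbage and kale overlapped and only TO1000 stood apart.

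VTC5 encodes an enzyme at the committed step of ascorbate (vitamin C) synthesis. VTC5 (Bo2g041230) was at 0 counts in both cabbage libraries, with 12.5, 19.9 and 17.7 CPM in kale and 0.157, 0.820 and 0.443 CPM in TO1000. It was at least 47.2-fold lower in cabbage than in kale and at least 1.4-fold lower than in TO1000, taking 3 counts over both cabbage libraries as the limit of a count of 0. The difference from TO1000 rested on few counts: its edgeR Benjamini-Hochberg adjusted p was 0.0445, and the call held in 10 of 19 alternatives and was lost without either cabbage library. ASO encodes ascorbate oxidase, which consumes ascorbate outside the cell. Its copy Bo9g150050 had 46.3 and 55.8 CPM in cabbage, 5.09, 3.77 and 4.54 CPM in kale and 21.9, 31.0 and 36.4 CPM in TO1000. Cabbage was highest without overlap, with log2 fold changes of 3.51 against kale and 0.78 against TO1000 (edgeR Benjamini-Hochberg adjusted p 2.58e-08 and 0.00829), the second short of 2-fold. It was the only one of 3 ASO copies with cabbage above TO1000 by the test: Bo7g118970 and Bo2g165650 overlapped TO1000, with log2 fold changes of 0.36 ± 0.58 and -0.13 ± 0.60 (SE, edgeR Benjamini-Hochberg adjusted p 0.649 and 0.888). The calcium genes CML26 and CP1 and the ferredoxin Bo8g059760 were likewise higher than both by the adjusted p but under 2-fold above TO1000. With ASO these were the 4 named genes of that kind.

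None of the 12 trichome genes, of which 9 were tested, placed cabbage outside both others. Over all genes, 25.7% were called against kale, with or without a call against TO1000, and all 9 trichome genes were called against kale only. The study listed them for a difference in kale, so this count largely restates that choice. Their median against the average was -1.06 (-0.82 with zeros at their limit). GL2, which in Arabidopsis drives trichome maturation, had 0.724 and 0 CPM in cabbage, 8.25, 14.7 and 7.89 CPM in kale and 0.157, 0.410 and 1.33 CPM in TO1000. It was low in cabbage and TO1000 alike.

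Most genes outside both others have identifiers that could not be paired with a name. By size and by level, 4 of them stood first among those that kept their place in every fit leaving out 1 library. Bo2g024150, with the largest increase, had 182 and 210 CPM in cabbage, 0.687, 0.717 and 0 CPM in kale and 0, 0.546 and 0 CPM in TO1000. Its log2 fold change against the average was 9.16 ± 0.31 (SE) (edgeR Benjamini-Hochberg adjusted p 1.89e-11), and the other morphotypes together had 13 counts. All 4 counts in TO1000 came from replicate 2, and without that library the log2 fold change was 10.79 against the average. Bo4g173610, the higher gene with the highest CPM in cabbage (not corrected for gene length), had 2287 and 2920 CPM in cabbage, 891, 969 and 658 CPM in kale and 611, 1244 and 1034 CPM in TO1000. Its log2 fold change against the average was 1.53 ± 0.23 (SE) (edgeR Benjamini-Hochberg adjusted p 0.000119). Under glmTreat of edgeR its adjusted p against TO1000 was 0.12, which ended the call outside both, and the call against the average was lost too. Bo00418s020, with the largest decrease, was at 0 in both cabbage libraries, 43.9, 21.2 and 27.5 CPM in kale and 45.5, 51.2 and 42.8 CPM in TO1000. It was at least 94.3-fold lower in cabbage than in kale and at least 136-fold lower than in TO1000. Bo7g113430, the lower gene with the highest CPM in the other morphotypes, had 139 and 109 CPM in cabbage, 1473, 903 and 1405 CPM in kale and 1114, 1527 and 1684 CPM in TO1000. It fell by 3.44 ± 0.29 (SE) on the log2 scale against the average, with an edgeR Benjamini-Hochberg adjusted p of 2.63e-07. On each of the 4 both cabbage libraries lay beyond every other library, which their selection on these libraries made likely.

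Only 4 genes had at least 10 counts in each cabbage library and 0 in all 6 others. All 4 lay outside both by the tests, which selection on the same counts made likely. Bo5g025690 had 12.3 and 7.54 CPM in cabbage, Bo8g070300 had 8.69 and 7.54 CPM, Bo6g056220 had 5.79 and 4.86 CPM and Bo2g131850 had 3.62 and 3.85 CPM. Set against 3 counts over the 6 other libraries, they were at least 113-fold, 98.8-fold, 64.4-fold and 47.2-fold higher in cabbage. These identifiers were chosen after their values were seen. In the other direction, 315 genes lower than both others had 0 counts in cabbage, where a count of 0 over both libraries allows a level of up to 0.344 CPM.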

How the data were processed

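RNA-seq counts of 8 libraries were used, mapped to morphotypes by their titles. The authors trimmed reads with cutadapt 2.4, checked them with FastQC, ran STAR against the TO1000 genome and deposited unnormalized read counts per gene; the strand setting is not given in the sources used here. Library cDNA was amplified by PCR without molecular identifiers, so intervals and limits cover counting error only. Replicates were separate pools of plants. In R 4.3.3, edgeR 4.0.16 kept genes by filterByExpr (minimum count 10, minimum total 15) and fitted all libraries in 1 quasi-likelihood model with TMM factors and morphotype as the only term. Tests were two-sided. P values were adjusted by the Benjamini-Hochberg method, over all genes for the average and over the 3 pairwise comparisons together otherwise. Standard errors were derived from the fold change and F statistic. Genes named were every gene of the study's lists outside both others and, of unnamed identifiers, the largest change and the most abundant gene in each direction that held in every fit leaving out 1 library. Other list members were named as tissue markers or where a result turned on them. Genes counted only in cabbage and the longest run were also named. Gene names are the study's, since 0 identifiers matched the RefSeq table, and no sequence is shown. Members and lists were chosen with earlier results of these data known. The alternatives were DESeq2 1.42.0, other factors, filters and thresholds, pooling of kale and TO1000, thinning, a replicate block and leaving out libraries. Leaving out kale replicate 3 and TO1000 replicates 2 and 3 together was chosen after seeing the data. The steps were tested on simulated data.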

Additional observations from a re-analysis of the deposited data

How the results depend on the processing

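Of the 28126 tested genes, 6287 were called against the average and 2820 outside both others. With FDR alone these counts were 10517 and 4788, and with glmTreat of edgeR, whose null is a change of up to 2-fold, 2515 and 1027. With kale and TO1000 as 1 group of 6 libraries, 1911 genes were called against them, a fit in which differences between kale and TO1000 add to the spread. Leaving out 1 library at a time gave 3551 to 6530 genes against the average and 1729 to 2970 outside both, with cabbage replicate 2 at the low end of each. The share of higher genes among those called against the average was 46.5%, and it was above 50% with FDR alone (51.5%), with glmTreat (53.8%), without cabbage replicate 2 (55.4%) and without kale replicate 3 and TO1000 replicates 2 and 3 (52.7%). Outside both others, lower genes outnumbered higher ones in every alternative. DESeq2 placed 2406 genes outside both, and 3601 did so by lack of overlap and a 2-fold difference with no test. Genes counted only in cabbage numbered 10 with a minimum of 5 counts, 2 with a minimum of 20 and 27 with up to 2 counts allowed elsewhere. With a replicate block, 5700 genes were called against the average and 2516 outside both. Replicate numbers were not shown to pair the libraries. Correlations of deviations ran from -0.12 to 0.20 for same-numbered libraries and from -0.17 to 0.17 for differently numbered ones. Deviations of the 2 cabbage libraries mirror each other by construction, so this check cannot settle pairing. Against the average, the 13 genes of the study and the 4 unnamed ones kept direction and call in 312 of 323 refits and lost the call in 11, 8 of them with kale and TO1000 as 1 group. The call outside both was less stable: the 13 genes of the study kept it in 204 of 247 refits, and glmTreat left 3 of them. Both totals include FDR alone, a looser threshold on the same fit, which could not remove a call. With no count filter the median of all genes was -0.54, in place of -0.02.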
